A study of Drosophila melanogaster with 3 samples.

Results

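The pair-rule and engrailed genes are 9 genes of the cascade that divides the fly embryo into segments: eve, run, odd, prd, opa, slp1 and slp2 of the pair-rule class, and en and inv, which pair-rule proteins switch on. They are 9 of 13945 annotated protein-coding genes and were chosen by name, with all peaks whose summit lay in the gene or within 5 kb of it. These windows held 12 of the 9708 peaks of the reproducible set, which is the optimal set that the authors obtained with the irreproducible discovery rate procedure (IDR), and 45 of the 30000 peaks of the relaxed list called on the pooled reads. Chromatin bound by E(bx), also called NURF301, was immunoprecipitated and sequenced from whole embryos aged 0 to 16 h of both sexes from a stable transgenic line, strain E(bx)-GFP, in which E(bx) has green fluorescent protein at its C terminus. The single group held 3 biological replicates, each from a biosample of its own, so nothing could be compared between groups and no test was run. According to the description the precipitating antibody was raised against the fluorescent protein, while the antibody field names E(bx). Each of the 9 genes is on in some cells of an embryo and off in others, and in whole embryos signal from few cells with much bound protein and from many cells with little cannot be told apart. Peak lists hold no expression, so the labelled stage could not be checked against marker genes.

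E(bx) is the largest subunit of NURF, a complex that slides nucleosomes by means of the ATPase Iswi and that is known to work with GAGA factor, a protein that binds GA-rich DNA. Most pair-rule genes are expressed in stripes that repeat in alternate segments, while opa covers a broad domain. Their products are transcription factors: homeodomain proteins (eve, and prd with a paired domain as well), a Runt domain protein (run), zinc finger proteins (odd, and opa of the Zic family) and forkhead proteins (slp1 and slp2). Together they place the stripes of en and inv, a pair of neighbouring homeodomain genes that fix the posterior compartment of each segment and are well known targets of Polycomb silencing, with response elements just upstream of the promoter of en.

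A reproducible peak lay at a promoter of every one of the 9 genes, while only en, inv and opa had a further one. Here a summit counts as a promoter peak where an annotated start site (TSS) of the gene is no more than 500 bp away. Such a peak was present at 9 of 9 genes, against 50.3% of all protein-coding genes. The members were chosen with earlier results of these data known. Of the pair-rule genes not among them, h had such a peak and ftz had none. Of the 12 summits, 9 were at start sites, against 74.1% of all reproducible peaks. At least 1 summit in the gene or within 5 kb was found for 9 of 9 genes against 76.1%, and at least 2 for 3 of 9 against 59.3%. A smaller share of them than of all genes thus had several summits. These windows also count summits at neighbouring genes, and the part of gene density was not tested. The count of members with a promoter peak was 3 among the 4854 strongest peaks of the set. It was 5, 7 and 9 in the best 9708 peaks of replicates 1, 2 and 3. When replicate 1, 2 or 3 was left out, that is among reproducible peaks matched in both other libraries, it was 7, 5 and 5. For these counts no share of all protein-coding genes was determined, so the 50.3% does not apply to them.

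**Figure D1:**
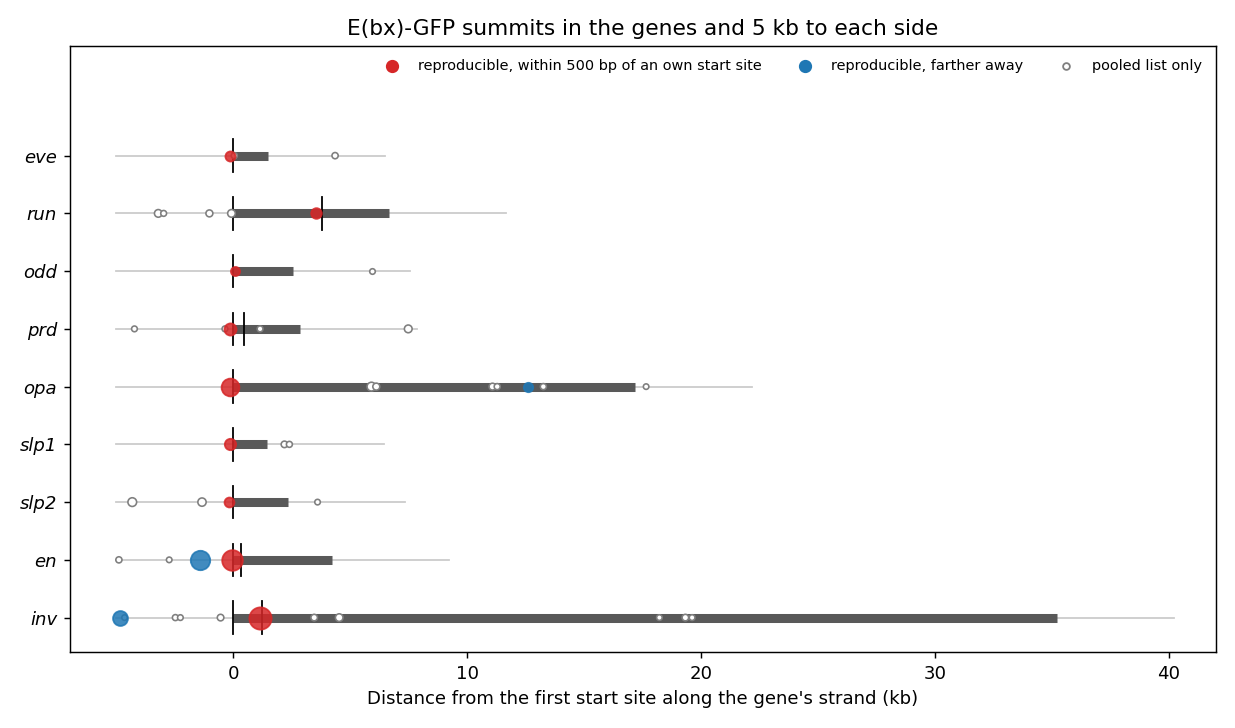
Summits along the 9 genes, with the distance in kb from the first start site on the x axis. Dark bars are genes, thin lines the 5 kb flanks, ticks the first and last start site, and the area of a circle grows with the signal value; 9 reproducible summits (red) lie at a start site of their gene, 3 (blue) lie farther away, and 33 summits (open) are in the pooled list only.

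The DNA under the promoter peaks is shown for the members outside the engrailed locus and eve, because the position of the summits and the words in these windows are described next. Each line gives the strand of the gene from 5′ to 3′ in the Release 6 assembly (dm6), over the summit and 100 bp to each side. For odd, whose summit lay after the start site, a stretch of the same length that ends at the base before the start site is given instead. For run only 29 bases are printed, since its summit lay in the 5′ UTR of the longer transcript. They end upstream of the summit and do not include it. Capitals mark GAGAG or CTCTC, the core word of GAGA factor, and CAGGTA or TACCTG, a shortened word of Zelda, the activator of the early zygotic genome. In run they also mark ACCGCA, the reverse complement of the Runt word TGCGGT.
run (chrX:20694148-20694176, plus strand): aaacacacaGAGAGACCGCAatggaaaaa
odd (chr2L:3606757-3606957, minus strand): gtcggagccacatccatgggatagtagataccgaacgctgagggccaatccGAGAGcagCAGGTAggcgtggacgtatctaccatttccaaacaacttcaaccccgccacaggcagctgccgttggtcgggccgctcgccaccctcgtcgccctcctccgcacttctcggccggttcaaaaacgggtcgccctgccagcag
prd (chr2L:12085886-12086086, minus strand): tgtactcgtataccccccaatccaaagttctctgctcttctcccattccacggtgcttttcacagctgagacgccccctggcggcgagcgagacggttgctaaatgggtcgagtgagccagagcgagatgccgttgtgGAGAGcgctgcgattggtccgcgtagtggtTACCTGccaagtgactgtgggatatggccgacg
opa (chr3R:4852550-4852750, plus strand): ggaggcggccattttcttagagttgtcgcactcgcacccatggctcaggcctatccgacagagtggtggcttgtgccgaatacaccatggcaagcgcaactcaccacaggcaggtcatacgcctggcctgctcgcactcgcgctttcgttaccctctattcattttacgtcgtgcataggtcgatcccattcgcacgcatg
slp1 (chr2L:3825441-3825641, plus strand): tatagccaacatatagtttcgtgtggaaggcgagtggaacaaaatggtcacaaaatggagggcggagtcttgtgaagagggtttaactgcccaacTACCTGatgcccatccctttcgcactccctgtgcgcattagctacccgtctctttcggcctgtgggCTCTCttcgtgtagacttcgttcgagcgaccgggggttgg
slp2 (chr2L:3836560-3836760, plus strand): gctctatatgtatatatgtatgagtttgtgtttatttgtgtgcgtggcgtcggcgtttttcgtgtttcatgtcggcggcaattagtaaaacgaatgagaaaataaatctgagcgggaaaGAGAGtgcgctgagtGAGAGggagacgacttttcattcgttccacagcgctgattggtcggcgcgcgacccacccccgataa
The stretches of odd, prd and slp1 held both words, slp2 had GAGAG at 2 places and no Zelda word, and opa had neither. Over the summit and 100 bp to each side, odd held neither word and run held both. In run the word GAGAG ran directly into ACCGCA.

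The summits lay upstream of the start site at 8 of 9 genes, and mostly by over 100 bp. Their distance from the nearest own start site was -161 bp at eve, -233 bp at run, 59 bp downstream at odd, -159 bp at prd, -163 bp at opa, -134 bp at slp1, -180 bp at slp2, -74 bp at en and -108 bp at inv. The median of -159 bp compares with -44 bp over all 7196 reproducible promoter peaks (interquartile range -102 to -9). The summit was over 100 bp upstream at 7 of 9 genes, against 25.2% of promoter peaks, a threshold chosen after the positions were seen. Among the best 9708 peaks of each library, it was 5 of 5 genes against 25.2% of the promoter peaks in replicate 1, 6 of 7 against 24% in replicate 2 and 7 of 9 against 26.3% in replicate 3. The whole lists, for which no share of all promoter peaks was computed, gave 8 of 8, 7 of 9 and 7 of 9 genes in replicates 1, 2 and 3.

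The position of single summits varied between libraries. Over the 3 libraries the distance averaged -162 ± 7.09 bp at prd and -108 ± 4.36 bp at inv (SD, n = 3 each), the smallest spreads among the promoter summits. It averaged -173 ± 61.7 bp at run (SD, n = 3), where the libraries put the summit at -107, -184 and -229 bp. At odd, replicates 2 and 3 placed the summit at -52 and 32 bp, on either side of the start site. At en replicate 1 placed it at -148 bp and both others at -74 bp.

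**Figure D2:**
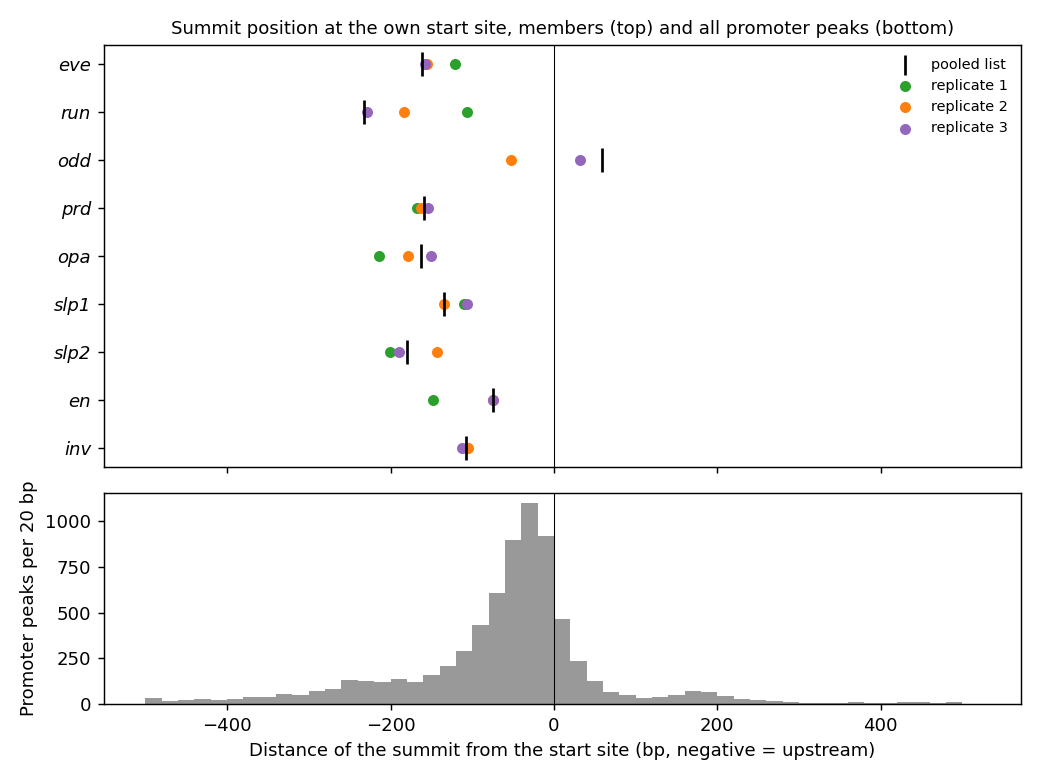
Distance of the promoter summit from the own start site in bp (x axis), for the 9 genes in the pooled list (bars) and in each replicate list (dots), above the histogram of all 7196 reproducible promoter peaks in 20 bp bins. At 8 of 9 genes the pooled summit lies upstream of the start site, and the histogram has its median at -44 bp.

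The primary pair-rule genes eve and run, which act early in the class, had weak promoter peaks, stronger than 11.2% of all promoter peaks at eve and 15.7% at run. The eve gene (FBgn0000606, 2R 9979319 to 9980795, plus strand) has 1 start site, and its peak (9978926 to 9979389) had a signal value of 211 in the pooled list. Signal is the authors' own value for a peak, and since its scale is not given the rank stands beside it. A percent rank is the rank divided by the length of the list, so that low percentages belong to strong peaks. The eve peak ranked 8246, at 27.5% of the list. Its signal was 36.5, 51.7 and 126 in replicates 1, 2 and 3, with ranks of 9755, 9676 and 7347. Replicate 3 thus held it among its best 9708 peaks by a margin, replicate 2 barely, and replicate 1 not. The summit also lay in an exon of the antisense RNA gene asRNA:CR43948, whose start site is within 500 bp, so the peak counts for both genes. No reproducible summit lay in the rest of the window of eve, which holds part of the flanking DNA that drives its stripes. A weak summit 4350 bp downstream of the start site had a signal of 48.9 and was found in 2 libraries.

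The run gene (FBgn0003300, X 20690670 to 20697321, plus strand) has a start site at 20690670 and another 3769 bp downstream. Its reproducible peak (20694133 to 20694340, signal 240) was at the downstream site and not at the first. Its signal was 23.4, 42.4 and 178 in replicates 1, 2 and 3, and its rank 12384, 10738 and 5683, so replicate 3 alone had it among its best 9708 peaks. The first start site had a weaker summit at -81 bp with a signal of 100 and rank 12250, outside the reproducible set, that was found in all 3 libraries. The start site of a non-coding RNA gene on the other strand is nearer to that summit than the one of run. At inv, too, the reproducible peak was at the later start site. Among genes with a promoter peak and start sites over 1 kb apart, 2 of 2 members (run and inv) had no reproducible peak at the first one, against 20.2% of such genes.

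Among the other pair-rule genes, opa stood above the rest. Its promoter peak (3R 4852365 to 4852843) had a signal of 758 and rank 3252 in the pooled list, and a signal of 161, 238 and 367 in replicates 1, 2 and 3. The percent rank averaged 11.3 ± 3.53% (SD, n = 3), and all 3 libraries placed it among their best 9708 peaks. The opa gene (FBgn0003002, 3R 4852813 to 4869979, plus strand) also held a reproducible summit in its intron, 12617 bp downstream of the start site, with a signal of 177. That peak ranked 9144, 9792 and 10709 in replicates 1, 2 and 3, so replicate 1 alone had it among its best. A weaker intronic summit at 5905 bp, with a signal of 147, ranked 9998 in the pooled list, just outside the set.

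The prd gene (FBgn0003145, 2L 12082995 to 12085827, minus strand) had a promoter peak (12085883 to 12086074) of signal 325. Its signal was 62.6, 97.5 and 162 in replicates 1, 2 and 3, and each library ranked it among its best 9708. As at eve, the summit lay in an exon of an antisense RNA gene, asRNA:CR44592, with a start site within 500 bp. The peak of odd (FBgn0002985, 2L 3604224 to 3606756, minus strand) was the weakest of the 9, with a signal of 163 where the set ends at 156. Replicate 1 had no summit at all in the window of odd, and replicates 2 and 3 gave a signal of 42.4 and 107 at ranks 10748 and 8144. The reproducible peak at odd was therefore among the best 9708 of replicate 3 alone. How deeply each library was sequenced is unknown, so the missing summit in replicate 1 is no measure of absence.

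The forkhead genes slp1 and slp2 (FBgn0003430, 2L 3825675 to 3827099, and FBgn0004567, 2L 3836840 to 3839185) lie 9.74 kb apart, both on the plus strand, and each had 1 reproducible summit, at the promoter. The peak of slp1 (3825443 to 3825665) had a signal of 281 in the pooled list and of 48.4, 106 and 133 in replicates 1, 2 and 3. The peak of slp2 (3836623 to 3836742) had a signal of 200.2, and of 29.3, 61.4 and 102 in replicates 1, 2 and 3. In every library slp1 ranked above slp2, and replicate 1 did not have slp2 among its best. Upstream of slp2, weaker summits at -4323 and -1341 bp had signals of 144 and 126. They were found in all 3 libraries but, at ranks 10133 and 10852, lay outside the reproducible set. Both were at the largest −log10 q-value of the pooled list (4.39), which a summit at run of rank 12258 also had.

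The engrailed pair had the strongest peaks. At inv (FBgn0001269, 2R 11474465 to 11509695, plus strand) the promoter peak (11475382 to 11475820) had a signal of 1213 and rank 1367, and at en (FBgn0000577, 2R 11524006 to 11528210, minus strand) the promoter peak (11527829 to 11528590) had a signal of 1033 and rank 1982. The inv peak had a signal of 368, 520 and 343 in replicates 1, 2 and 3, and ranked 1222, 855 and 2515. The en peak had a signal of 267, 342 and 359, and ranked 2294, 2205 and 2295, the steadiest of all members with a percent rank of 7.64 ± 0.0217% (SD, n = 3). In replicate 3 the promoter peak of opa, with a signal of 367 and rank 2205, stood above both. The inv peak lay 108 bp upstream of the later start site, 1135 bp after the first and in the 5′ UTR of the longer transcript. No summit of the pooled list lay within 500 bp of the first start site of inv. The nearest was at -547 bp with a signal of 60.5, in 2 libraries.

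Each of en and inv had a second reproducible summit in intergenic DNA. The one at en lay 1448 bp upstream of the start site (11529476 to 11529846), with a signal of 914 and rank 2489, close to that of the promoter. It had a signal of 238, 378 and 303 in replicates 1, 2 and 3, and in replicate 2 it ranked 1820, above the promoter peak of en. The libraries placed its summit within a few base pairs of each other, at -1452 ± 3.21 bp (SD, n = 3). The one at inv lay 4852 bp upstream of the first start site (11469451 to 11469732), with a signal of 517 and rank 4870. Its signal was 114, 187 and 207 in replicates 1, 2 and 3. All 4 peaks of the pair were among the best 9708 of every library. In the 14.3 kb between the genes the pooled list held 0 summits, and in the long body of inv, beyond the promoter peak, it held only summits of signal 96.9 and below.

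By pooled signal the promoter peaks ran in the order inv, en, opa, prd, slp1, run, eve, slp2 and odd. The step from opa to prd, by a factor of 2.34, was the single step between neighbours in this order that all 3 libraries shared. The other 7 steps were reversed in at least 1 library, with ratios of 1.05 to 1.36, and are within the spread. Of the 9 promoter peaks, 3 exceeded the median of 614 over all promoter peaks. The peak of inv was stronger than 83.3% of all promoter peaks, that of en than 75.7% and that of opa than 60.5%, while prd stood at 25.2% and odd at 1.49%. The median over the 12 peaks was 303, against 519 for the whole reproducible set.

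**Figure D3:**
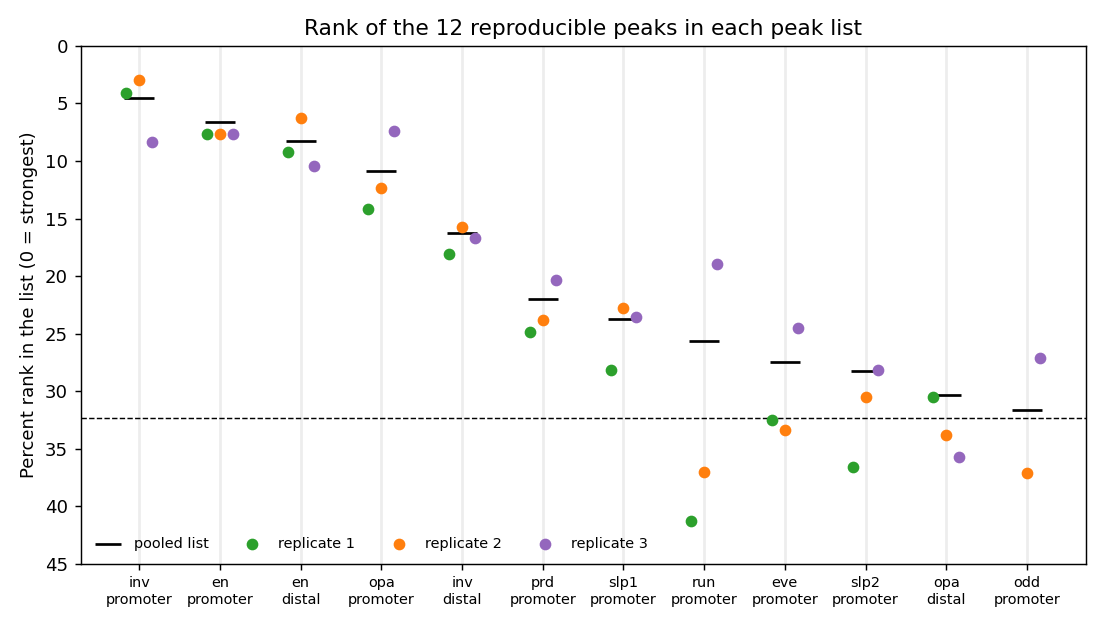
Percent rank (y axis, 0 at the top for the strongest) of the 12 reproducible peaks in the pooled list (bars) and the 3 replicate lists (dots). The dashed line marks the end of the reproducible set in the pooled list. The peaks of en and inv and the promoter peaks of opa, prd and slp1 lie above it in every library. Replicate 3 (purple) ranks the promoter peaks of eve, run, odd, prd, opa and slp2 above the other libraries, and odd has no dot for replicate 1.

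Fewer of the peaks than of the whole set recurred among the best peaks of every library. A summit within 200 bp in the best 9708 peaks of all 3 libraries was found for 7 of 12 peaks, against 77.1% of the reproducible set, for 2 peaks in exactly 2 libraries and for 3 peaks in 1. Those short of 3 libraries were the promoter peaks of eve, run, odd and slp2 and the intronic peak of opa. Their pooled signals were 163 to 240, where the set ends at 156, and the part of signal was not tested. With whole replicate lists a match in all 3 libraries was found for 11 of 12 peaks, the exception being odd. The matching share of the reproducible set was not determined. Where several summits lay within 200 bp, the strongest was taken. Of the promoter peaks, 7, 7 and 9 were at the largest −log10 q-value of the lists of replicates 1, 2 and 3 (4.36, 4.29 and 4.46). Peaks beyond the best 9708 also had this value, such as slp2 at rank 10982 in replicate 1. The share of all peaks with it was not determined, so these counts do not set the members apart. By percent rank 6 of 12 peaks, all at promoters (eve, run, odd, prd, opa and slp2), were highest in replicate 3, a share near the 46.1% of the reproducible set. The best 9708 peaks of replicates 1, 2 and 3 placed 8, 9 and 13 summits in the windows (10 ± 2.65, SD, n = 3). The 33 weaker summits of the pooled list had signals of 27.8 to 147 with a median of 44.0. Of these, 9 were found in all 3 whole lists, 6 were at the largest −log10 q-value, and 8 lay within 250 bp of a stronger pooled summit.

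GA repeats were found at most of the peaks. GAGAG was found, on either strand and within 100 bp of the summit, at 9 of 12 peaks against 27.9% of all reproducible peaks, and at 7 of 9 promoter peaks against 23.5% of all promoter peaks. It was found 9 times at the promoter of en, 8 times at that of inv, 6 times at the upstream peak of en and 2 times at that of inv. It was found 2 times at eve and at slp2 and 1 time at run, prd and slp1, and both opa windows had none. At odd the printed GAGAG lies farther than 100 bp from the summit, so that window had none either. Within 50 bp of the summit it was found at 7 of 12 peaks against 18% of all peaks, and within 200 bp at 11 of 12 against 41.3%. These windows were also richer in G and C, with a median of 53.2% (range 45.8 to 67.2) against 39.8% over all reproducible peaks (upper quartile 45.8), and the part of base composition in the count was not tested.

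Of the other 7 words searched on both strands, the Zelda word CAGGTA was at 3 of 12 peaks (run, prd and slp1) against 4.09% of the reproducible set. The Runt word TGCGGT was at 3 of 12 (eve, run and the upstream peak of inv) against 7.42%. The Pho word GCCAT, of the DNA-binding Polycomb group protein, was at 5 of 12 against 31.2%. These were the promoter peaks of prd and opa, the intronic peak of opa and the upstream peaks of en and inv. CGATA, the core word of the insulator protein BEAF-32, which TATCGATA contains, was at 3 of 12 against 40.7%. TATCGATA, the word of the housekeeping factor DREF, was at 0 of 12 against 9.52%. TAATTA, a homeodomain core, and the E-box CACGTG were at 1 peak each against 11.6% and 3.24%, at the promoter of inv and at its upstream peak. These are matches of letters and not binding sites.

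Related genes of the segmentation cascade were counted by the same rule. Of the other pair-rule genes, h (annotated as hry) had one (signal 223) and ftz had none. Of 6 gap genes, which act before the pair-rule genes, 2 had one, hkb (198) and Kr (158), while gt and hb were among those without. Of 16 segment polarity and target genes, 15 had one, with gsb-n the exception. This list also holds components of Hedgehog and Wnt signalling. Its strongest peaks were at smo (2078), the signal transducer of Hedgehog, and arr (1638), the Wnt co-receptor. The median signal of promoter peaks was 281 for the pair-rule and engrailed genes and 667 for the segment polarity list, whose peaks ran from 224 to 2078. Of 6 paralogues of members, sob (354) and drm (289), relatives of odd, had one, while bowl and lz were among those without. Among the promoter peaks of the segment polarity list, 10 of 15 summits were over 100 bp upstream and 3 of 15 windows held GAGAG. Both gap gene peaks held GAGAG, and 1 of them was over 100 bp upstream. The peak of h held GAGAG with its summit at -3 bp. Both paralogue peaks held GAGAG, with the summit at -291 bp at sob and 455 bp downstream of the start site at drm. These counts were not tested against each other.

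**Figure D4:**
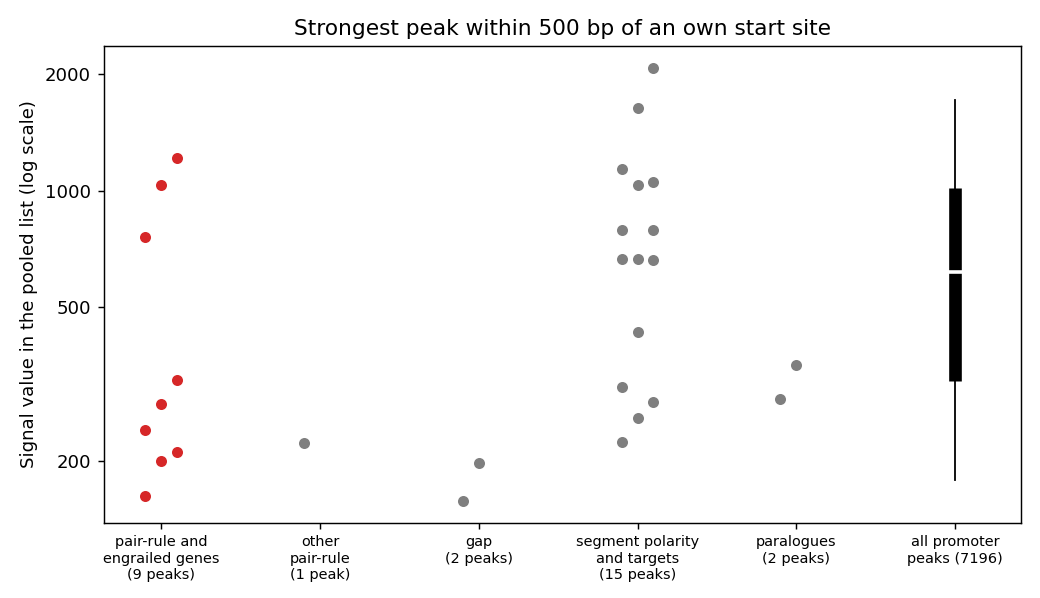
Signal value in the pooled list, on a log scale, of the strongest peak within 500 bp of an own start site, for the 9 pair-rule and engrailed genes (red), for the genes of 4 related lists that have one (grey) and for all 7196 promoter peaks (bar from the lower to the upper quartile, line from percentile 5 to 95, white mark at the median). The members inv, en and opa lie above the median of 614 and the other 6 below it.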

How the data were processed

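DNA precipitated from 3 replicates of whole embryos was sheared by sonication to 200 to 800 bp, per the labels. The deposited files are lists of peaks. Per the deposited file records, each replicate list derives from the alignments of its own library, the pooled list from those of all 3, and the reproducible set from these 4 lists. The aligner, peak caller, settings and IDR threshold were not given in the sources used here. A control that the labels name was not analysed here. Column 7 of the deposited lists is the authors' signal value, a score of unstated scale, and column 9 is the deposited −log10 q-value. The lists of replicates 1, 2 and 3 held 30000, 28972 and 30000 peaks. With no read counts in the lists, the depth is unknown. Lists on dm3 were left out.

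Summits (the start column plus the offset column, written with the first base as 1) were assigned with Python 3.11.15 and pandas 2.3.3 to gene models of Ensembl release 115, without transposable elements; the assignment was tested on simulated data. Sequence came from the Release 6 genome of RefSeq, the assembly that dm6 names.

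The members and the 4 related gene lists were chosen with earlier results of these data known, and h was matched through a synonym. The text names all members, other genes with a start site within 500 bp of their reproducible summits, the gene most like each member in rank, and from each related list the 2 strongest promoter peaks and, by alphabet, the first 2 genes lacking one. Alternatives were start site windows of 250 and 1000 bp, flanks of 2 and 10 kb, matching within 100 or 500 bp, shorter and longer lists, other motif windows, and each library alone or left out.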

Additional observations from a re-analysis of the deposited data

How the results depend on the processing

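No paired analysis was possible because there is 1 group. Promoter windows of 250 or 1000 bp and protein-coding start sites alone left the count of members with a promoter peak at 9. Of the values under other settings, 47 of those on the whole gene set kept within 1.5 times the count or the spread and 21 moved; of those on single members, 16 kept and 10 moved, and 0 reversed. Among the 4854 strongest peaks the promoter count was 3, the window summits were 4 at 3 members with a median signal of 974, and 3 held GAGAG. The best peaks of replicate 1 gave a promoter peak at 5 members and any summit at 5. No share over all genes or all peaks was determined for these counts or for those with 1 replicate left out. With flanks of 10 kb the median signal was 517 and 11 summits were in all 3 libraries; with the best 4854 peaks of each library 4 were, and with whole lists 11. The median percent rank of the promoter peaks was 23.7% in the pooled list and 20.3% in that of replicate 3. Leaving out 1 replicate at a time meant keeping the reproducible peaks with a match among the best of the remaining pair, as the set itself could not be called again. This gave 5 to 7 members with a promoter peak, 7 to 9 summits, 5 to 7 members with any summit, a median signal of 517 to 758, 71.4 to 77.8% of summits at start sites and 6 to 8 peaks with GAGAG. The cause was not tested. The count of members with the summit over 100 bp upstream, added after the data were seen, was 8 at 50 bp and 5 at 150 bp, against 45.3% and 17.1% of promoter peaks. Unknown depth limits what a missing summit says.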

Other observations

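The genes most like each member, by the largest difference in percent rank of the promoter peak over the 3 libraries, were fliI for inv, AhcyL1 for en, Elp6 for opa, trn for prd, IP3K1 for slp1, PsGEF for run, Dsp1 for eve and bib for slp2. The largest differences were 0.17 points for en and 2.32 points for run. With 3 libraries of 1 group this is a likeness of rank alone, and odd, which replicate 1 lacked, was left out.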
